A study of Homo sapiens with 4 samples.

Results

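The core NRF2 pathway genes are 10 genes chosen by name: NFE2L2, KEAP1, HMOX1, NQO1, GCLM, GCLC, TXNRD1, SRXN1, SLC7A11 and MAFG. Every H3K27ac peak that overlapped the span of 1 of these genes, extended by 50 kb on either side, was taken from both H3K27ac peak lists. These were 10 of 20056 protein-coding genes, with 83 of the 65118 daunorubicin peaks and 47 of the 38626 untreated peaks. Each member lies on a different chromosome, so no peak was counted for more than 1 of them. H3K27ac is acetylation of lysine 27 of histone H3, which marks active promoters and enhancers. The cells were K562, a human line established from blast-phase chronic myeloid leukaemia, and coordinates are those of hg38. The daunorubicin group was 1 H3K27ac library from K562 given 1 uM daunorubicin, a topoisomerase II poison of the anthracycline class, for 18 h. The untreated group was 1 H3K27ac library from K562 labelled as having no treatment, and each condition had 1 input library made without antibody. The question was whether the marking around these genes differed with the drug. There was 1 library per group, so no difference below has a replicate check and none was tested.

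NRF2, the protein of NFE2L2, is a transcription factor that is held in the cytosol and sent for degradation by KEAP1, an adaptor of a CUL3 ubiquitin ligase. Oxidants and electrophiles modify cysteines of KEAP1, after which NRF2 builds up, enters the nucleus and pairs with a small MAF protein such as MAFG at antioxidant response elements. The genes it activates make and use glutathione and thioredoxin, and anthracyclines are known to undergo redox cycling that yields superoxide.

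RefSeq promoter windows (GRCh38.p14, from 250 bases before to 50 bases after a listed start, hence 300 bases) were matched for 8 of the 10 members, with 11 windows in all, and HMOX1 and SLC7A11 are described by their annotated ends. The core letters of the antioxidant response element, TGACNNNGC, were searched on both strands and were found in 4 of the 11 windows, belonging to GCLM, KEAP1 and TXNRD1, against 13.3% of 35116 windows of all genes. These 4 windows are shown because they carry the letters that NRF2 and MAFG are known to read. They are chr1:93909381-93909680 on the minus strand for GCLM, chr19:10502722-10503021 on the minus strand for the second listed start of KEAP1, and chr12:104215529-104215828 and chr12:104286782-104287081 on the plus strand for both listed starts of TXNRD1. Each is written 5′ to 3′ in the direction of the gene, with the matches in capitals.
GCLM: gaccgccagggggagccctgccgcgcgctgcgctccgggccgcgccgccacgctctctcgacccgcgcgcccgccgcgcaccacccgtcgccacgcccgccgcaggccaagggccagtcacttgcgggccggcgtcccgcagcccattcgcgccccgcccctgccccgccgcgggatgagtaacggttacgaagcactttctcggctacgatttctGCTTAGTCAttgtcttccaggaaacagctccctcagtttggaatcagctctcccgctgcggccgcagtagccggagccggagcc
KEAP1 second start: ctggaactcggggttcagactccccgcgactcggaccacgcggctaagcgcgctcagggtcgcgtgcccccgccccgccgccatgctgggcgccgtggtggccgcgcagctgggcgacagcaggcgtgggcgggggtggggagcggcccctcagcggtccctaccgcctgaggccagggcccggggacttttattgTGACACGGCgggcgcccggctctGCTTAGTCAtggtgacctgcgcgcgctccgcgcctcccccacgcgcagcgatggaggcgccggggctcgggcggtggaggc
TXNRD1 first start: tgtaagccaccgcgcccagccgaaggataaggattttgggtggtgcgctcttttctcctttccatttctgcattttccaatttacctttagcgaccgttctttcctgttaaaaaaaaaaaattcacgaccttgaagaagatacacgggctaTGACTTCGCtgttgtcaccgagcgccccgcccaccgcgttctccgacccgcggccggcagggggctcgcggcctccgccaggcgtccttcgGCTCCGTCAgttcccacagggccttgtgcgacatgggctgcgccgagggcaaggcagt
TXNRD1 second start: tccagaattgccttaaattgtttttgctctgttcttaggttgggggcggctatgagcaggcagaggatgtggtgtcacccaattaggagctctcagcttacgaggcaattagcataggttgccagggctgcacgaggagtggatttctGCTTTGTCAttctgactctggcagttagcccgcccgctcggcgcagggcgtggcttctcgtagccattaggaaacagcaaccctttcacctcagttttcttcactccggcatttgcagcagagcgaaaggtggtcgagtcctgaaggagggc
GCLM and KEAP1 held the same letters, GCTTAGTCA, which read TGACTAAGC on the other strand, at positions -34 to -26 and -31 to -23, where the listed start is position 0. KEAP1 also held TGACACGGC at -54 to -46. The window of the first TXNRD1 start held TGACTTCGC and GCTCCGTCA, and that of the second start held GCTTTGTCA, at -102 to -94. All these matches lay inside a peak in both libraries, with the exception of TGACTTCGC, which lay below the edge of the daunorubicin peak and inside the untreated peak. A match is a description of letters and not a shown binding site.

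Other motifs were searched in the same way. The AP-1 letters TGANTCA, with which a TGACNNNGC match can overlap, were in none of the 11 windows and in 7.71% of all windows. GGGCGG was in 9 of 11 windows against 45.0%, CCAAT in 3 of 11 against 34.6%, and TATAAA in 1 of 11, that of GCLC, against 11.5%.

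The daunorubicin list held 1.69 times as many peaks as the untreated list and 1.59 times the covered length, 57.0 Mb with daunorubicin against 36.0 Mb without it, and the part of list length in the differences below was not tested. Read depth is unknown, since the lists give no counts. In bulk chromatin, fewer cells carrying a mark and less of it per cell cannot be told apart. Of 8 genes that mark erythroid and progenitor cells such as K562, all were marked at an end (a peak no farther than 1 kb) with daunorubicin and 7 without it, the exception being HBG2, a near copy of HBG1. Of the lymphoid markers CD3D, CD3E, CD2, MS4A1, CD79A and PAX5, CD3D, CD3E and CD79A were marked at an end in each library and CD2, MS4A1 and PAX5 in neither. No input library had a peak in any member's window.

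Peaks covered more of the window with daunorubicin than without it at all 10 members, and nearly all of the added length lay away from gene ends. Summed over the members, peaks covered 78968 bp with daunorubicin against 60047 bp without it, a ratio of 1.32. A peak was placed at the own end if no more than 1 kb separated it from an annotated end of the member, at the end of another gene if it lay within 1 kb of an end of a different protein-coding gene, and was otherwise called distal. Own ends held 16807 bp with daunorubicin against 15997 bp without it. Ends of other genes held 24737 bp with daunorubicin against 25228 bp without it. Distal peaks held 37424 bp with daunorubicin against 18822 bp without it. The distal length was longer with daunorubicin at 8 members, shorter at MAFG, and 0 in both libraries at GCLM, whereas the own-end length was longer at 7 and shorter at 3. The largest own-end difference, 751 bp, was at MAFG, at a peak that is also at an end of SIRT7. Shares of all genes are not given for these counts, so they are not read as particular to the members.

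**Figure D1:**
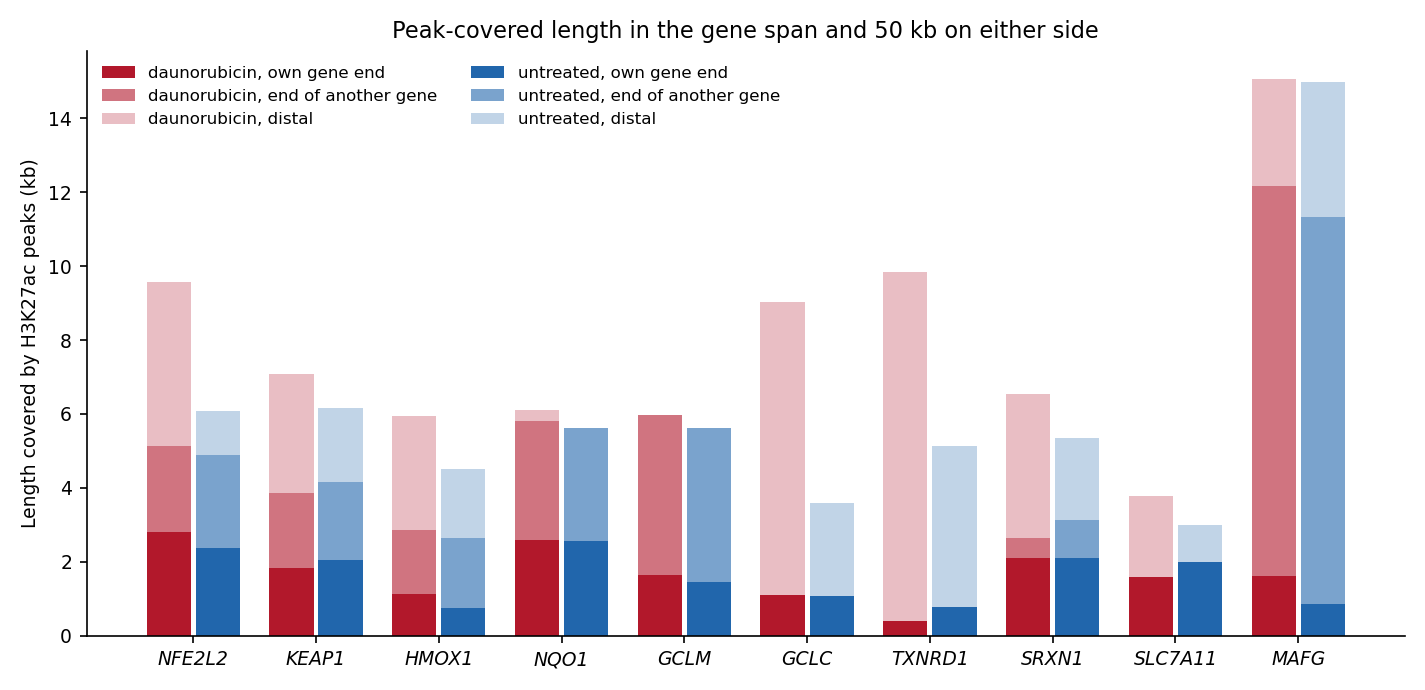
Length covered by H3K27ac peaks (kb, bars from 0) in the span of each member extended by 50 kb, with 1 bar for the daunorubicin library on the left and 1 for the untreated library on the right of each pair. Shades divide each bar into own gene end, end of another gene and distal, and the palest part is 7945 bp with daunorubicin against 2531 bp without it at GCLC.

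The same division was seen over the whole lists. Peaks within 1 kb of an end of any protein-coding gene covered 16.7 Mb with daunorubicin against 14.9 Mb without it, a ratio of 1.12, and the ratio at members' own and neighbouring ends was 1.01. All other peaks covered 40.3 Mb with daunorubicin against 21.0 Mb without it, a ratio of 1.92, and the distal ratio at members was 1.99. Of the 17631 protein-coding genes marked in either library, 87.4% had longer marking with daunorubicin, beside 10 of 10 members. Marking was at least 1.5-fold longer at GCLC, TXNRD1 and NFE2L2, 3 of 10 members, against 40.5% of marked genes. That share also counts genes marked with daunorubicin only, whereas every member had untreated marking. The median difference, daunorubicin minus untreated, was 1067 bp over the members and 1312 bp over all marked genes. This order was not stable, since the members' median was the higher under 3 alternatives: 919.5 bp against 849 bp with a score of at least 43, 921.5 bp against 538 bp with flanks of 10 kb, and 2366 bp against 2276 bp with flanks of 100 kb.

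**Figure D2:**
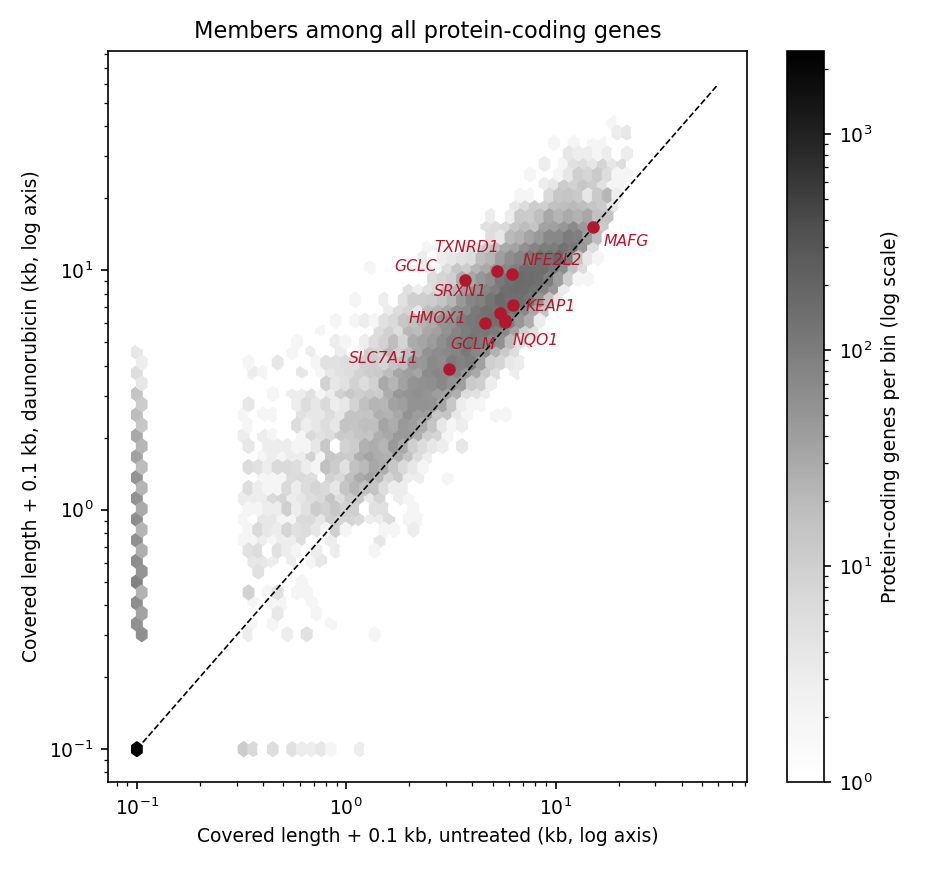
Length covered by peaks in the daunorubicin library (vertical) against the untreated library (horizontal), in kb plus 0.1 on log axes, for all protein-coding genes in grey bins and for the 10 members as labelled points. All members lie on or above the dashed line of equal length, inside the cloud of other genes, with GCLC and TXNRD1 highest above it and MAFG nearest to it.

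All 10 members had a marked end in each library, against 57.6% of protein-coding genes. At HMOX1 and MAFG the marked annotated end was not the one where transcription starts. HMOX1 is transcribed from its lower end, and the nearest peaks lay 2969 bp below that end with daunorubicin and 3565 bp below it without the drug. MAFG has a listed start inside its annotated span, which is treated with that gene below.

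**Figure D3:**
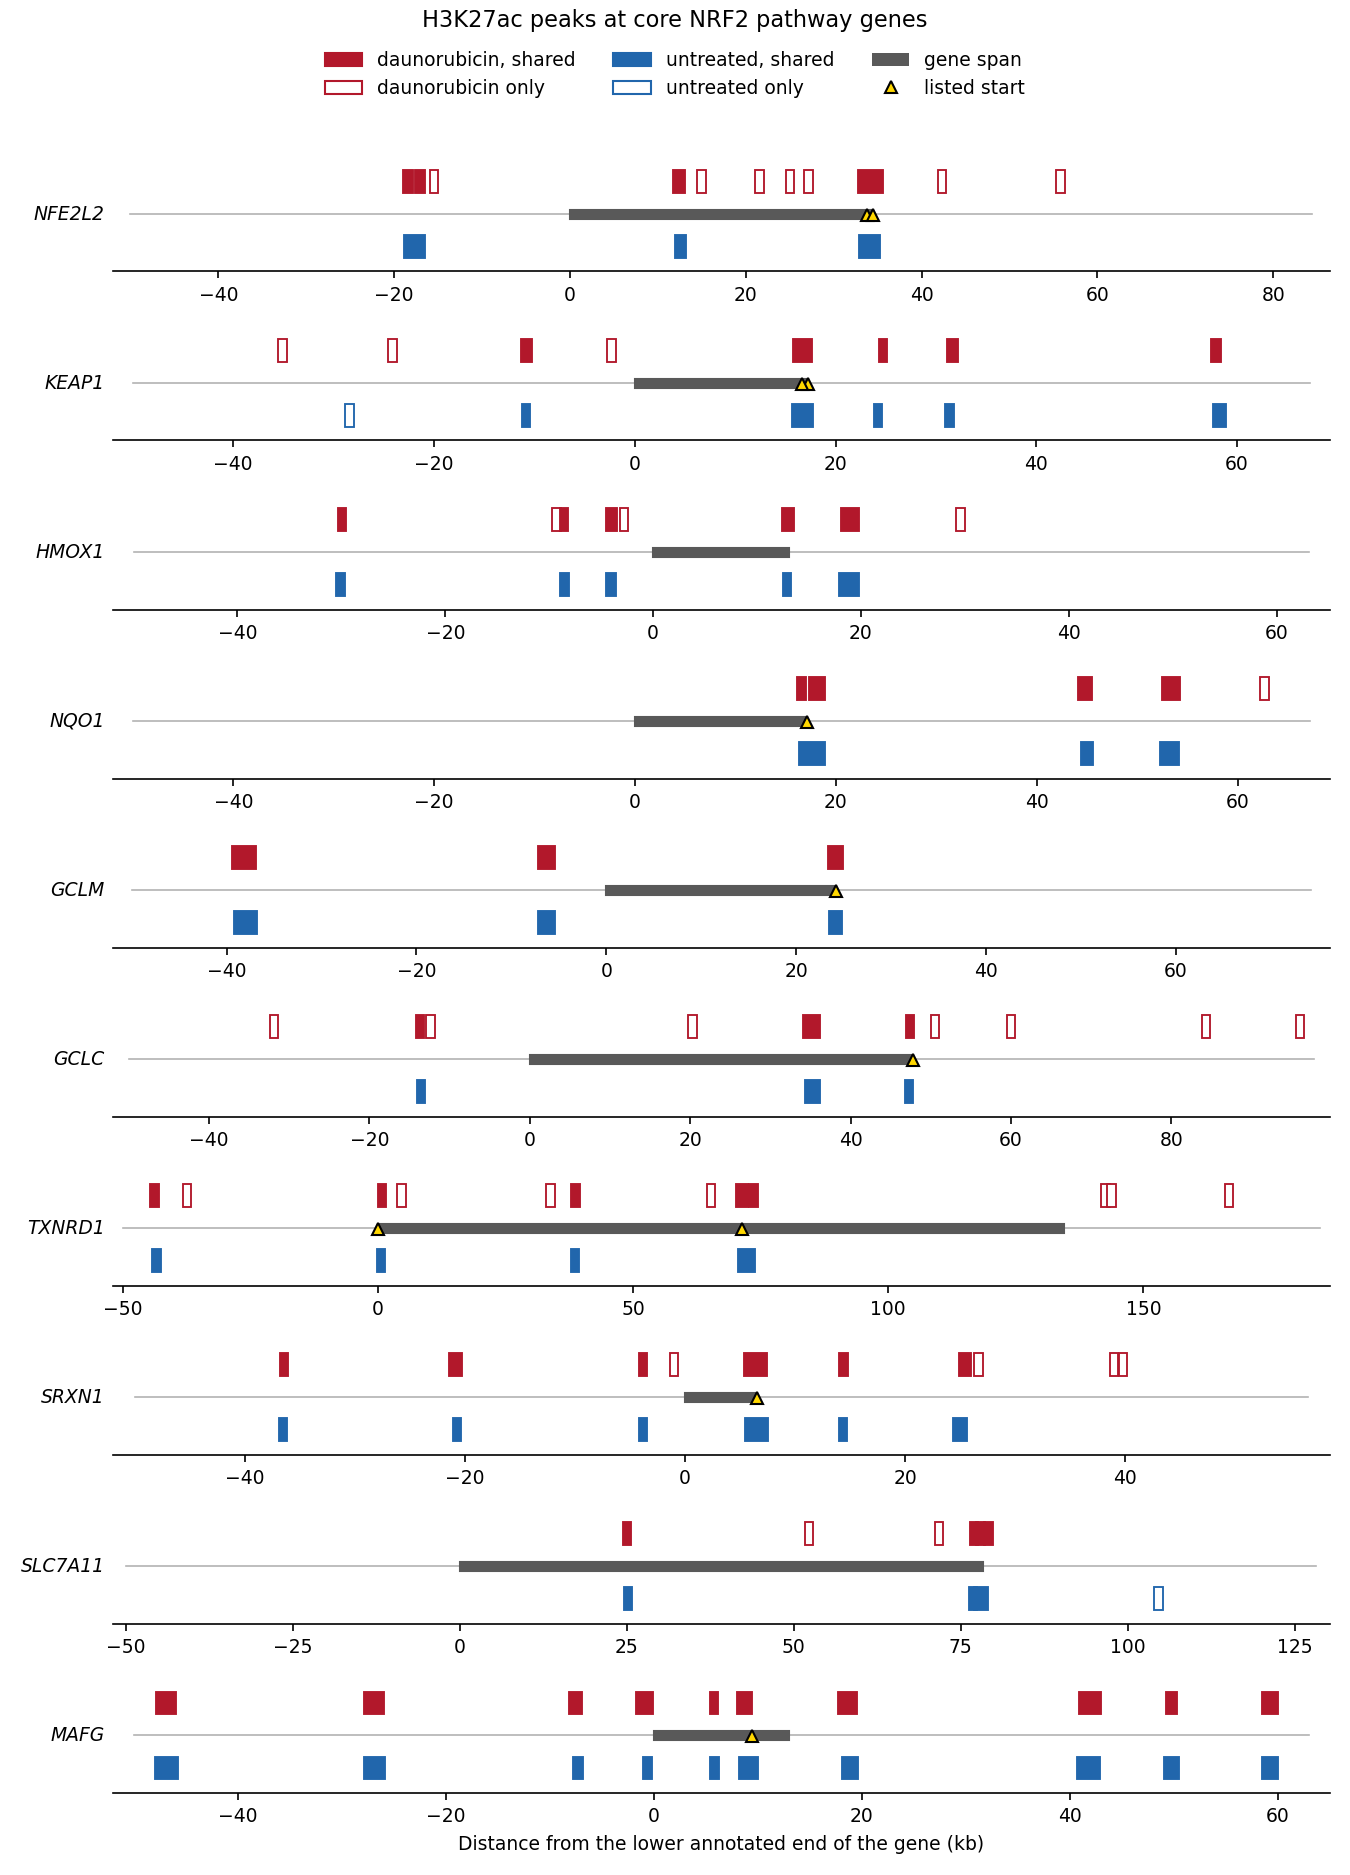
Peaks of the daunorubicin library (above each gene line) and the untreated library (below it) around each member, by distance in kb from the gene's lower annotated end, with a scale of its own for each gene. Filled boxes overlap a peak of the other library, open boxes do not, very narrow peaks are drawn at a minimum width, grey bars are gene spans and triangles are listed starts. Open boxes with daunorubicin are most frequent at NFE2L2, GCLC and TXNRD1, with 7 each, and windows are longer at longer genes.

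Among the regulators, NFE2L2 (chromosome 2, 177230303 to 177264727) had 11 peaks with daunorubicin and 3 without it, covering 9574 bp with daunorubicin against 6091 bp without it. The peak over both of its listed starts was 2805 bp wide with daunorubicin (score 240) and 2386 bp wide without it (score 399). Scores are the authors' own values per peak and are described within a list, although 1 alternative setting below applies a common score minimum to both lists. Within their lists these peaks stood at percentile 97.0 of daunorubicin scores and 98.4 of untreated scores. So the start of NFE2L2 was among the highest-scoring places in each list. Inside the gene, a peak of 1368 bp with daunorubicin overlapped a peak of 1212 bp without it. The 7 peaks called only with daunorubicin had scores of 11 to 48, and the widest, 1089 bp, lay 20827 bp upstream of the higher end at 177285554 to 177286642. The other shared marking lay at the end of HNRNPA3, which encodes an RNA-binding protein.

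KEAP1 (chromosome 19, 10486125 to 10503356) had 8 peaks with daunorubicin and 6 without it, covering 7083 bp with daunorubicin against 6152 bp without it. Its start peak covered both listed starts and was 1845 bp wide with daunorubicin (score 296) and 2049 bp wide without it (score 424). The start was thus marked slightly more narrowly with the drug. Of 3 peaks called only with daunorubicin, the highest-scoring (883 bp, score 51) lay 1867 bp beyond the end where the gene stops, at 10483376 to 10484258. The other 2, with scores of 47 and 34, lay inside PDE4A, a phosphodiesterase gene. A peak of 467 bp and score 23 inside PDE4A was called only without daunorubicin, 3824 bp from the nearest daunorubicin peak.

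MAFG (chromosome 17, 81918270 to 81931244), a small MAF partner of NRF2 and of its competitor BACH1, had 10 peaks in each library, and each overlapped a peak of the other. They covered 15078 bp with daunorubicin against 14990 bp without it, the smallest difference of the 10 members. Most of this length, 10566 bp with daunorubicin against 10468 bp without it, lay at ends of neighbouring genes. The own-end peak, 1606 bp with daunorubicin against 855 bp without it, was also at an end of SIRT7, a deacetylase gene. The listed start of MAFG at 81927735 lay 41 bp outside a daunorubicin peak of 1471 bp (score 239) and inside an untreated peak of 1907 bp (score 250), both classed as distal because the annotated end lies farther out.

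In glutathione synthesis, 7 daunorubicin-only peaks lay near GCLC and none near GCLM. GCLC (chromosome 6, 53497341 to 53545101), the catalytic subunit of glutamate-cysteine ligase, had 10 peaks with daunorubicin and 3 without it. They covered 9033 bp with daunorubicin against 3599 bp without it, a ratio of 2.51 that was higher than at 92.8% of protein-coding genes with untreated marking. The peak at its start was of nearly equal width, 1088 bp with daunorubicin (score 185) and 1068 bp without it (score 406). A shared peak inside the gene was 2095 bp wide with daunorubicin (score 146) and 1891 bp without it (score 36).

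At GCLC, 7 peaks were called only with daunorubicin, and all 3 untreated peaks were shared. In the 50 kb upstream of the start there were 4 of these and no separate untreated peak. The nearest was 702 bp wide with a score of 90 and lay 2240 bp upstream, at 53547341 to 53548042. The next were 887 bp (score 52) at 11745 bp, 988 bp (score 21) at 36094 bp and 942 bp (score 73) at 47817 bp. Thus the upstream flank of GCLC held called peaks in the daunorubicin library only. A peak of score 28 lay inside the gene, and peaks of scores 26 and 16 lay beyond its other end.

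GCLM (chromosome 1, 93885199 to 93909430), the modifier subunit of the same enzyme, had 3 peaks in each library, all shared. They covered 5968 bp with daunorubicin against 5630 bp without it. The peak at its start, which contains the matched letters shown above, was 1633 bp wide with daunorubicin (score 198) and 1463 bp wide without it (score 325). The other peaks lay at ends of BCAR3 and DNTTIP2, and GCLM had no distal peak in either library.

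SLC7A11 (chromosome 4, 138164097 to 138242349), the transporter that brings in cystine for glutathione synthesis, had 6 peaks with daunorubicin and 4 without it, covering 3777 bp with daunorubicin against 2982 bp without it. Both lengths were the lowest of the 10 members. Its higher end, where transcription starts, had 2 daunorubicin peaks of 948 bp and 652 bp (scores 109 and 148) over an untreated peak of 1997 bp (score 114). A peak of 1030 bp and score 73 inside the gene, 6145 bp from that end, was called only with daunorubicin, as was 1 of 313 bp and score 26. A peak of 281 bp and score 24, 25741 bp upstream, was called only without it.

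The thioredoxin arm was led by TXNRD1 (chromosome 12, 104215779 to 104350307), which encodes the cytosolic thioredoxin reductase. It had 12 peaks with daunorubicin and 4 without it, covering 9845 bp with daunorubicin against 5135 bp without it, a ratio of 1.92. At the first listed start the peak was 406 bp wide with daunorubicin (score 103) and 783 bp without it (score 73). At the second listed start, inside the annotated span and so classed as distal, peaks of 2393 bp and 1123 bp (scores 109 and 37) lay over an untreated peak of 3280 bp (score 125). Both starts were therefore marked in both libraries, the second over a greater length.

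Of the 7 TXNRD1 peaks called only with daunorubicin, the highest-scoring was 1202 bp wide and lay 37092 bp upstream of the first start, at 104177486 to 104178687. Its score of 155 stood at percentile 90.1 of the daunorubicin list and was the highest of any peak called in a single library at these 10 genes. Peaks of 703 bp (score 64) and 594 bp (score 59) lay 3793 bp past the first start and 6281 bp from the second. The remaining 4 had scores of 14 to 27.

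SRXN1 (chromosome 20, 646615 to 653200), the sulfiredoxin that restores over-oxidised peroxiredoxins, had 10 peaks with daunorubicin and 6 without it, covering 6540 bp with daunorubicin against 5337 bp without it. Its start peak was 2104 bp wide with daunorubicin (score 77) and 2094 bp wide without it (score 113). The 4 peaks called only with daunorubicin had scores of 16 to 33, all below the median of their list, which was 41. One of them, 228 bp wide, lay 1178 bp beyond the end where the gene stops.

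HMOX1 (chromosome 22, 35381096 to 35394207), haem oxygenase, which breaks down haem, had 8 peaks with daunorubicin and 5 without it, covering 5951 bp with daunorubicin against 4518 bp without it. In the mouse, this gene is known for a pair of upstream enhancers that carry antioxidant response elements. Upstream of human HMOX1, shared peaks lay at 35376538 to 35377625 with daunorubicin (1088 bp, score 79) and 35376563 to 35377531 without it (969 bp, score 61). Farther upstream, a peak of 479 bp with daunorubicin (score 39) overlapped a peak of 669 bp without it (score 40). Each of these had a narrow daunorubicin-only peak beside it, of 223 bp (score 18) and 427 bp (score 47), 374 bp and 347 bp from the nearest untreated peak. Upstream marking of HMOX1 was thus called in the untreated library as well. The highest-scoring peak of the window, 1742 bp with daunorubicin (score 253) and 1887 bp without it (score 276), lay at an end of MCM5, a replication helicase gene.

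NQO1 (chromosome 16, 69709401 to 69726560), the quinone reductase, had 5 peaks with daunorubicin and 3 without it, covering 6119 bp with daunorubicin against 5613 bp without it. With daunorubicin, 2 peaks of 920 bp and 1670 bp (scores 185 and 203) left an uncalled gap of 255 bp, from 69726420 to 69726674, that contained the start at 69726560. Without daunorubicin, that start lay inside 1 peak of 2553 bp (score 216). The promoter window chr16:69726511-69726810 on the minus strand (GRCh38.p14) is shown because this gap runs through it, with the 164 bases outside every daunorubicin peak in capitals.
NQO1: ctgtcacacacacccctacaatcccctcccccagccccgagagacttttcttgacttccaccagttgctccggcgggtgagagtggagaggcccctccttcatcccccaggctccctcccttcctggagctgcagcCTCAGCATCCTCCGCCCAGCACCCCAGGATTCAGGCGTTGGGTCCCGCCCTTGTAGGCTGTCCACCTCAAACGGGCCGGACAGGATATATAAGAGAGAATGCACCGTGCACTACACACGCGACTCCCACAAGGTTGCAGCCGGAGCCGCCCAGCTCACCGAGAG
The other NQO1 peaks lay at ends of NOB1 and WWP2, with the exception of a daunorubicin-only peak of 301 bp and score 22, 45099 bp upstream.

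Such divided peaks occurred at 4 of the 47 untreated peaks in the members' windows, 8.51%, against 4.28% of all untreated peaks. They were the starts of NQO1 and SLC7A11, the second start of TXNRD1 and the HNRNPA3 end near NFE2L2, with gaps of 248 to 285 bp between the daunorubicin peaks. No daunorubicin peak at a member overlapped more than 1 untreated peak. The share over all daunorubicin peaks is not given, so this is not read as particular to the members.

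Peaks called in a single library were mostly narrow and of low score. At the members, 34 of 83 daunorubicin peaks had no untreated peak, 41.0% (95% Wilson interval 31.0 to 51.7), against 46.3% of all daunorubicin peaks. Of the untreated peaks, 2 of 47 had no daunorubicin peak, 4.26% (1.17 to 14.2), against 10.7% of all untreated peaks. These intervals cover counting error only and treat peaks as independent. Daunorubicin-only peaks were unevenly spread over the windows, with 7 each at NFE2L2, GCLC and TXNRD1 and none at GCLM and MAFG. The intervals may therefore be too narrow. The daunorubicin share was near that of the whole list, and the untreated share was lower than that of the whole list, which its interval includes. The middle values for the 34 were a width of 421.5 bp and a score of 26 (medians), beside 435 bp and 26 for all daunorubicin-only peaks. At the shared daunorubicin peaks of the members, the median width was 1151 bp and the median score 109.

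All 34 were distal, as were the 2 called only without daunorubicin, and 5.81% of all daunorubicin-only peaks lay at an end of a protein-coding gene. A daunorubicin-only peak occurred at 8 of 10 members, all but GCLM and MAFG, against 73.9% of protein-coding genes. A peak called only without daunorubicin occurred at 2 of 10, KEAP1 and SLC7A11, against 30.1%. Of the 34, 12 exceeded the median score of the daunorubicin list, and 10 of the 34 overlapped the span of the member itself. Shares over all daunorubicin-only peaks are not given for these counts, but their median score, 26, was also below that of the list, 41. They held 17646 bp of daunorubicin marking, and the 2 untreated-only peaks held 748 bp. The shared peaks were wider by 2023 bp in sum with daunorubicin.

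**Figure D4:**
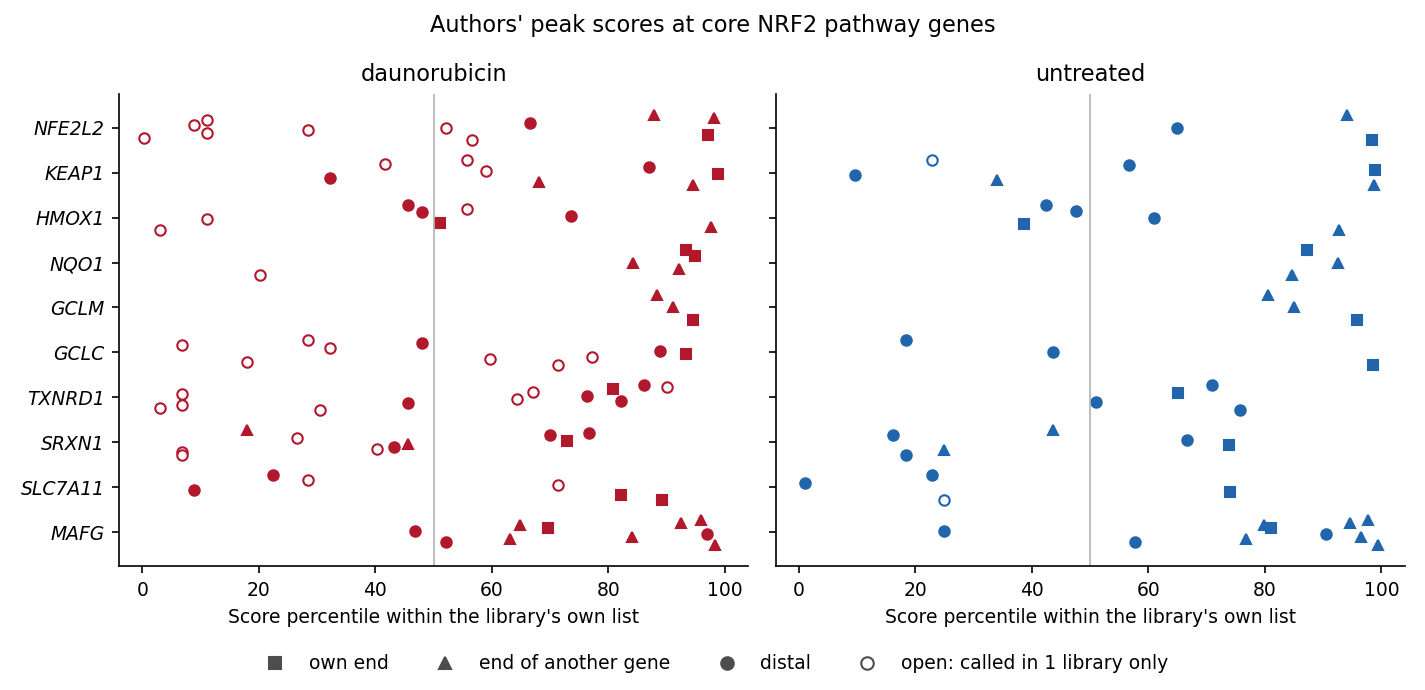
Percentile of each peak's authors' score within its own list (horizontal, 0 to 100, line at the median) for the 10 members, with the daunorubicin library on the left and the untreated library on the right. Squares are own ends, triangles ends of other genes and circles distal peaks, and open symbols are peaks called in 1 library only, of which 22 of 34 with daunorubicin lie at or below the median score. Daunorubicin-only peaks of the whole list had a median score of 26, below the list median of 41.

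Since the daunorubicin list was longer, the 38626 highest-scoring peaks of each list were also compared. Marking was then longer with daunorubicin at 8 members and shorter at SRXN1 and SLC7A11, against 65.4% longer of all marked genes. GCLC had 6514 bp with daunorubicin against 3599 bp without it, TXNRD1 had 8124 bp with it and 5135 bp without it, and NFE2L2 had 8022 bp with it and 6091 bp without it. These 3 had the largest differences of the members, of 2915 bp, 2989 bp and 1931 bp. Windows include the gene span, from 6586 bp at SRXN1 to 134529 bp at TXNRD1, and the differences are not scaled to window length. SRXN1 had 5137 bp with daunorubicin against 5337 bp without it, and SLC7A11 had 2630 bp with it and 2982 bp without it. HMOX1 differed by 1002 bp, KEAP1 by 398 bp, GCLM by 338 bp, NQO1 by 205 bp and MAFG by 88 bp, each longer with daunorubicin.

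**Figure D5:**
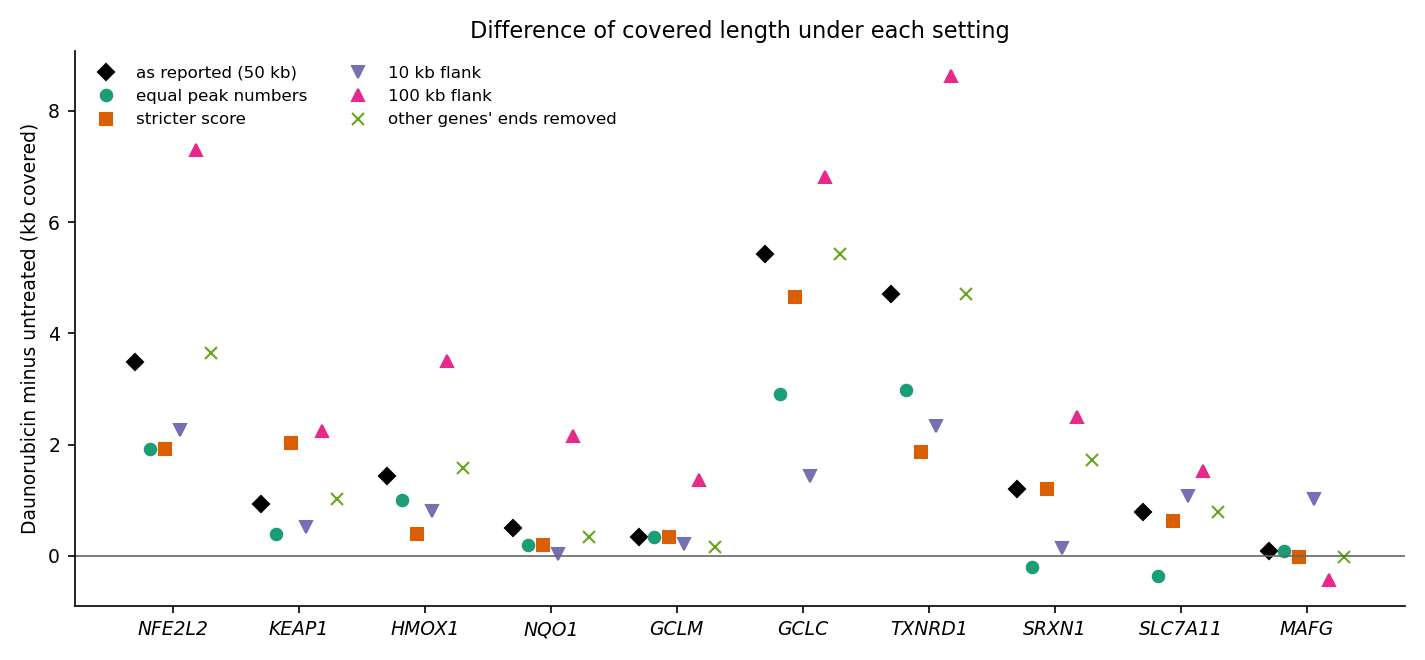
Difference of covered length, daunorubicin minus untreated (kb, line at 0), for each member as reported and under 5 other settings, 1 symbol per setting. GCLC, TXNRD1 and NFE2L2 stay above 0 throughout, between 1443 bp and 8628 bp under the alternatives. HMOX1, KEAP1, GCLM and NQO1 also stay above 0, between 37 bp and 3513 bp. SRXN1, SLC7A11 and MAFG fall below 0 under at least 1 alternative.

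The wider pathway was described by 38 further genes of NRF2 regulation and of its targets, all matched by symbol. Marking was longer with daunorubicin at 36 of 38, against 87.4% of all marked genes, and shorter at 2. The median of these differences was 1458.5 bp, beside 1312 bp over all marked genes, and 12 of the 38 were at least 1.5-fold longer, against 40.5%. The 12 include AKR1B10 (208 bp with daunorubicin) and CES1 (799 bp with it), which had no untreated marking and so no ratio. With equal numbers of highest-scoring peaks, 37 of the 38 were marked in either list. Marking was then longer at 23 of these 37, against 65.4% of all marked genes, and shorter at 14. Of the 38, 31 had a marked end in each library, against 57.6% of protein-coding genes, and 7 in neither, so no gene of the list had an end marked in a single library. The shorter ones were IDH1, an NADPH-producing isocitrate dehydrogenase gene (4906 bp with daunorubicin against 5209 bp without it), and GSTP1, a glutathione transferase gene (8414 bp with it and 8537 bp without it), both named after their values were seen. Windows of AKR1C1, AKR1C2 and AKR1C3 overlap, as do those of CBR1 and CBR3.

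The 4 largest differences in bp were at regulators and an exporter. The windows include the gene span, so they are longer at longer genes. By ratio, ABCC2 (3.52) and GSTM3 (2.48) stood above these 4 (1.66 to 2.29). BTRC, an adaptor of a ubiquitin ligase that also targets NRF2, had 16292 bp with daunorubicin against 9332 bp without it. CUL3, the scaffold of the KEAP1 ligase, had 8954 bp with daunorubicin against 3917 bp without it. ABCC1, which exports glutathione conjugates and drugs, had 11432 bp with daunorubicin against 6737 bp without it. NFE2L1, a relative of NRF2, had 10564 bp with daunorubicin against 6355 bp without it. None of the 4 differed in whether an own end was marked.

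The genes most like NFE2L2 in 4 lengths, those at own ends and elsewhere in each library, were BAZ1B, RELL2 and SASS6, at Euclidean distances of 153 bp, 221 bp and 237 bp. BAZ1B had 9418 bp with daunorubicin against 6228 bp without it. With 2 libraries this likeness is a description only.

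The limits of the windows left the following peaks just inside and outside. The daunorubicin peak farthest from a member's span was 47817 bp away, at GCLC (score 73), and the nearest outside was 53040 bp away, at KEAP1 (score 80). For untreated peaks these were 45761 bp at MAFG (score 374) and 53094 bp at KEAP1 (score 129). Around the limit of 1 kb for own ends, the farthest daunorubicin peak inside was 249 bp from an end of SLC7A11 and the nearest outside 1178 bp from an end of SRXN1. For untreated peaks these were 144 bp at MAFG and 1597 bp at SLC7A11.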

How the data were processed

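H3K27ac ChIP-seq and input libraries of K562, 1 per condition, were analysed from 4 peak lists, and samples were grouped by the antibody and the treatment given among their characteristics. A separate protocol label names the drug for all 4 samples, the untreated ones included, and was not used for grouping. MACS2 2.1.1, Bowtie2 2.3.4.3 and deepTools 3.2.1 are named in the submitters' processing notes, as are the builds hg19 and hg38. Tool settings, the peak threshold and any use of inputs were not given in the sources used here. A peak list for each library was deposited by the authors, so peaks were called per library, with a score per peak whose formula is not given there.

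Gene positions came from RefSeq tables of GRCh38.p14, the build whose sequence names the lists carry, and coordinates are counted from 1. Starts, strands and promoter sequences came from the same source, except at HMOX1 and SLC7A11, for which none was matched. The direction of transcription given for HMOX1 and SLC7A11 is what is known of these genes. An overlap of 1 bp or more made peaks shared. Covered length was cut at the window edges. Overlap and coverage code was tested on simulated peaks against bedtools and gave the same values. Work was done in Python 3.11.15 with pandas 2.3.3.

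The members and lists were chosen with earlier results of these data known, and a test across conditions was not possible with 1 library per group. All members were named, and of the 38 other genes those with an end marked in 1 library only and the 4 with the largest differences. Neighbours were named where a peak lay at their end, and the 3 genes most like NFE2L2 were sought over 1 Mb from any member. The 9 alternatives chosen at the outset changed the score, the number of peaks, input peaks, the overlap rule (2), the window (2), the gene end and neighbours' ends. The 1 chosen after seeing the data used listed starts. The result of 1 marker gene is not reported here.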

Additional observations from a re-analysis of the deposited data

How the results depend on the processing

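No member's window held a peak of the input lists (87 with daunorubicin, 92 without), so removing peaks on input peaks could change no value. The overlap rules, the wider gene end and listed starts do not enter covered length, so they could not change its direction. Members longer with daunorubicin numbered 9 with scores of at least 43 (78.6% of marked genes) and 8 with equal numbers of highest-scoring peaks (65.4%). They numbered 10 with flanks of 10 kb (79.7%), 9 with flanks of 100 kb (90.8%) and 9 with neighbours' ends removed. No share of marked genes is given for that last setting, so its count is not read as particular to the members. Regions called only with daunorubicin, 34 as reported, numbered 15 with scores of at least 43, 13 with equal numbers of highest-scoring peaks and 18 with flanks of 10 kb, and 29 to 49 under the other settings. Regions called only without it, 2 as reported, numbered 0 with the stricter score and with flanks of 10 kb, 6 with equal numbers, 8 with a reciprocal overlap of 50% and 7 with flanks of 100 kb. Shares over all peaks are given for the reported setting only, so these counts are not read as particular to the members. The median difference of 1067 bp was 368 bp with equal numbers (399 bp over all marked genes) and 2366 bp with flanks of 100 kb (2276 bp over all marked genes). SRXN1 (-200 bp) and SLC7A11 (-352 bp) turned with equal numbers. MAFG turned with the stricter score (-19 bp), flanks of 100 kb (-440 bp) and neighbours' ends removed (-10 bp). Equal numbers cut the daunorubicin list only, the stricter score cut both lists, and the flank settings changed the window. The cause of these turns was not tested. With the stricter score, 9 members, all but HMOX1, had a marked end in each library, and the share of 57.6% of protein-coding genes does not apply to that setting. A peak lay within 1 kb of a listed start in both libraries at all 8 members with one. The listed starts of NQO1 and MAFG were themselves outside daunorubicin peaks. Shares of all genes are not given for these counts of marked ends and starts, so they are not read as particular to the members. No paired analysis was possible because each group had 1 library. Read depth is unknown, so a missing call does not show that a mark was absent.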
